A study of Mus musculus with 41 samples.

Results

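The LSD1n sites far from LSD1c are the places where the neuronal isoform LSD1n was called on chromatin after 1 h in KCl and the common isoform LSD1c was not called nearby. They were taken from the list of Flag-LSD1n sites at 1 h, on chromosomes 1 to 19, as the sites with no Flag-LSD1c site within 1 kb in either the 0 h or the 1 h list. The rule found 1122 sites among 4336 autosomal Flag-LSD1n sites, or 25.9% (95% exact interval 24.6% to 27.2%). The other 3214 sites have an LSD1c site within 1 kb and are called near sites. The list of Flag-LSD1n sites holds 4438 entries in all, and the 27 lists of the series together hold 488881.

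The data are chromatin immunoprecipitation with sequencing (ChIP-seq) from mouse primary cortical neurons kept for 10 days in vitro and exposed to 55 mM KCl for 0 h or 1 h. Tagged isoforms were pulled down with the M2 antibody to Flag from neurons labelled R26/LSD1n or R26/LSD1c, and what drives the tagged gene is not given in the labels. H3K4me1, H3K36me3, H4K20me1 and RNA polymerase II (Pol II) were each measured in LSD1n WT and LSD1n KO neurons at both times, and H3K4me2 in LSD1n WT neurons only. An antibody to LSD1 was used in wild type neurons at 0 h and 1 h, in LSD1n WT neurons at 0 h, and in LSD1n KO neurons with no KCl time in the label. Every group has 1 library except H4K20me1 in LSD1n WT at 1 h, which has 2. Nothing says whether those 2 came from separate cultures.

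LSD1 (KDM1A) is a demethylase that works with the corepressor CoREST and removes methyl groups from mono- and dimethylated H3K4. LSD1n is an isoform made in neurons by including a microexon, and LSD1c is the form without it. H3K4me2 marks promoters and enhancers and H3K4me1 mainly enhancers and the flanks of promoters. H3K36me3 and H4K20me1 are found over the bodies of transcribed genes, and Pol II piles up at active promoters. KCl depolarizes neurons and induces activity-dependent genes.

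No difference between libraries could be tested, because nearly all groups hold a single library. Intervals in parentheses are 95% exact (Clopper-Pearson) intervals. They cover counting error over sites only and take sites as independent, which neighbouring sites are not. Shares are of sites that overlap a peak by at least 1 bp, unless a distance of 1 kb is named. The libraries held between 6990017 and 34859557 tags, and the lists between 940 and 62945 peaks, so a higher share in a longer list can come with its length. Titles of the Flag-LSD1n libraries begin with another prefix than those of the Flag-LSD1c libraries. Which of the 2, isoform or prefix, goes with the choice of sites cannot be told apart. The genotype named inside each Pol II list is the opposite of the sample label, and genotypes below follow the labels.

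The sites were chosen by their distance to the nearest LSD1c site, a value read from the lists, and these distances are given as a description. The median far site lay 61.0 kb from the nearest LSD1c site, with quartiles at 24.1 kb and 149 kb. Most far sites were not close to the limit: 1020 of the 1122 (90.9%) were over 10 kb from LSD1c and 396 (35.3%) over 100 kb. The sites just inside the rule lay 1009, 1012 and 1029 bp from LSD1c, and the sites just outside it 979, 975 and 971 bp. Of the near sites, 2067 overlapped an LSD1c site, and 568 were near only through the LSD1c list of 0 h. The share of far sites by chromosome ran from 21.8% on chromosome 16 to 30.4% on chromosome 15. A far site was 88.0 kb (median) from the next LSD1n site, a near site 67.6 kb, and 10.2% of far against 14.5% of near sites had another LSD1n site within 10 kb.

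H3K4me2 was the mark most often found on far sites. At 0 h 931 far sites (83%, 80.6% to 85.1%) overlapped an H3K4me2 region, against 86.6% (85.4% to 87.8%) of near sites and 85.7% of all autosomal LSD1n sites. At 1 h the order turned: 734 far sites (65.4%, 62.6% to 68.2%) overlapped H3K4me2 against 57.2% (55.4% to 58.9%) of near sites, with 59.3% over all. Far sites were thus in the 1 h list more often than near sites, by more than the counting intervals. Within 1 kb the shares at 1 h were 82.5% and 84.5%, with 84% over all, so the higher far share at 1 h held for overlap and not for closeness. Within 1 kb at 0 h they were 91.5% and 96.3%, with 95.1% over all.

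H3K4me2 regions were centred on the far sites. At 0 h they covered 78.9% of far site centres, 60.4% of the positions 500 bp away and 5.57% of those 2 kb away. At 1 h the same values were 61.0%, 46.1% and 4.90%. Between the 2 times, 657 far sites kept an H3K4me2 region, 274 had one only at 0 h and 77 only at 1 h. The background over all sites was 31.8% only at 0 h and 5.4% only at 1 h, and far sites had 24.4% and 6.86%. A far site with H3K4me2 at 0 h was in the 1 h list in 70.6% of cases, a near site in 60.3%. The 1 h library was the shallowest of the series, and its part in the lower shares at 1 h was not tested.

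H3K4me1 overlapped far sites more often than near sites in all 4 libraries, over the whole list. In WT at 1 h this did not hold for the far sites over 100 kb from LSD1c, as given below. In LSD1n WT neurons 159 far sites (14.2%, 12.2% to 16.4%) overlapped H3K4me1 at 0 h and 303 (27.0%, 24.4% to 29.7%) at 1 h, against 10.4% and 19.7% of near sites. The background over all sites was 11.3% and 21.6%. In LSD1n KO neurons the far shares were 119 sites (10.6%) at 0 h and 325 (29.0%, 26.3% to 31.7%) at 1 h, against 8.62% and 22.2% of near sites and 9.13% and 23.9% of all. The far and near intervals did not overlap at 1 h in either genotype. At 0 h the order turned in the first 50% of the Flag-LSD1n list, with 9.80% of far and 11.5% of near sites in WT and 5.64% and 9.85% in KO. At 1 h in those first 50% the far share was 23.3% against 19.4% in WT and 21.8% against 21.5% in KO, so in KO little of the difference was left. Among far sites overlapping H3K4me1, gains with KCl outnumbered losses: 209 sites only at 1 h and 65 only at 0 h in WT, 248 and 42 in KO. Background shares were 14.9% and 4.66% in WT, and 17.9% and 3.14% in KO, and far sites had 18.6% and 5.79% in WT and 22.1% and 3.74% in KO. Losses made up 23.7% of the discordant far sites in WT and 14.5% in KO, against 23.8% and 14.9% over all. The balance of gains and losses was thus not particular to far sites. The 1 h lists were also the longer ones, 44793 against 37204 peaks in WT and 62945 against 33244 in KO.

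**Figure D1:**
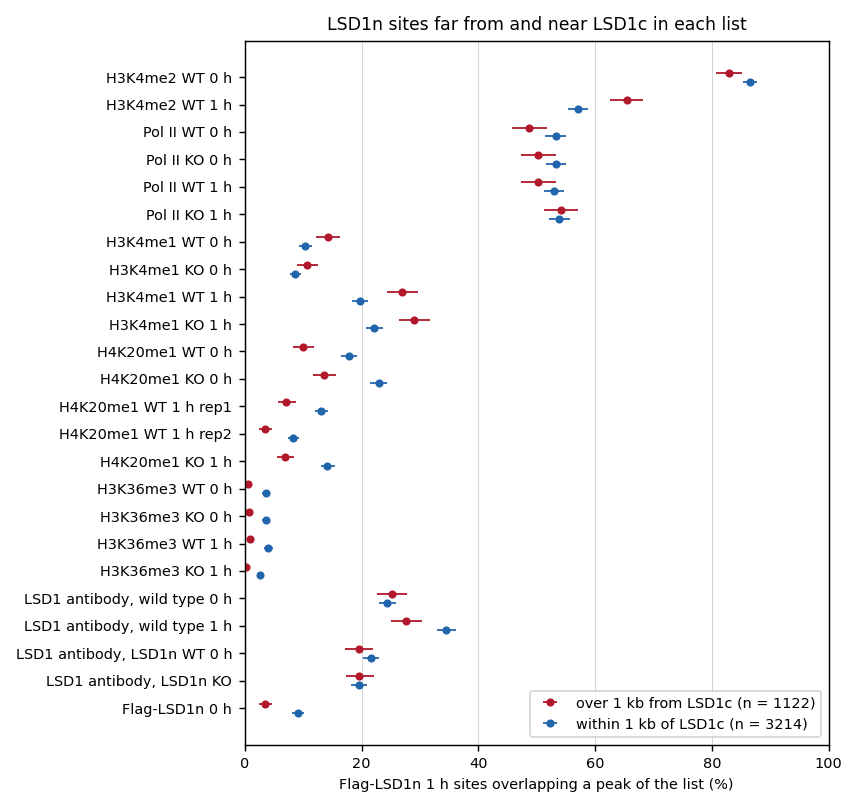
Share of Flag-LSD1n 1 h sites (x axis, %) that overlap a peak of each list (y axis) by at least 1 bp, for the 1122 sites over 1 kb from LSD1c (red) and the 3214 within 1 kb of it (blue). Points are shares of 1 library each and bars are 95% exact intervals over sites; far sites lie to the right in the 4 H3K4me1 lists and in H3K4me2 at 1 h, and to the left in all 5 H4K20me1 and all 4 H3K36me3 lists.

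The higher cover of far sites by H3K4me1 was seen at the site and 500 bp from it, and the order had turned by 2 kb. In WT at 1 h, H3K4me1 covered 23.3% of far site centres and 16.2% of near site centres, and 26.9% and 22.4% of the positions 500 bp away. It rose with distance to its highest cover at 1100 bp, 31.1% for far and 33.0% for near sites, and was at 13.9% and 19.3% at 2 kb. In KO at 1 h the shares were 24.5% and 17.8% at the centre, 31.5% and 25.5% at 500 bp, and 21.6% and 26.4% at 2 kb. With H3K4me1 counted within 1 kb, far and near sites had 72.4% and 71.8% in WT at 1 h (72% over all) and 77.7% and 77.3% in KO at 1 h (77.4% over all). The dip at the centre was thus shallower at far sites in both 1 h libraries.

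**Figure D2:**
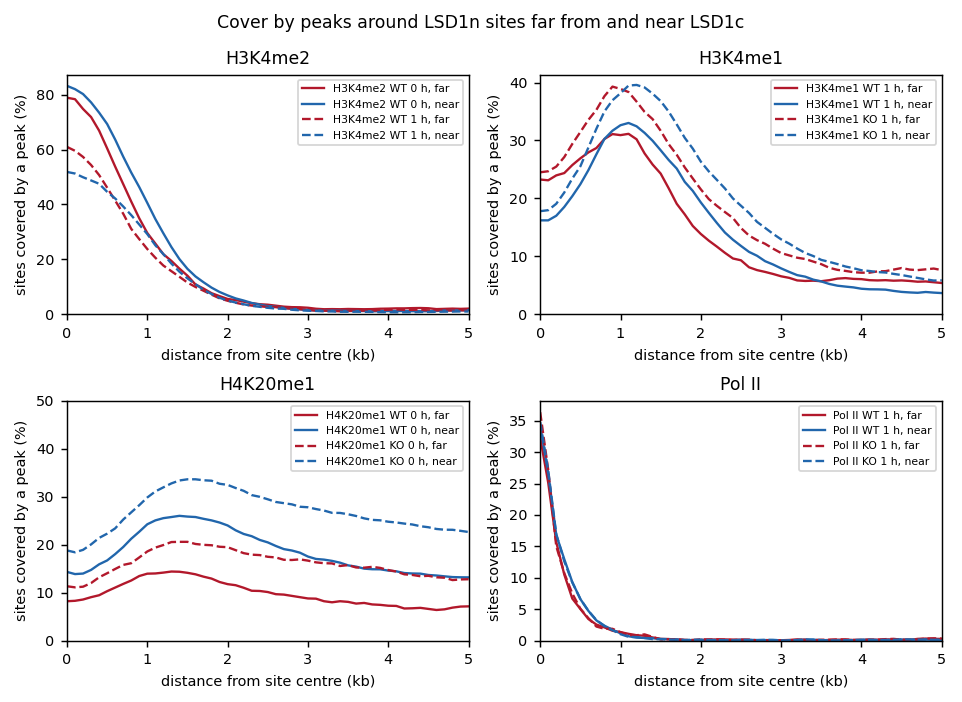
Percent of sites whose position at a given distance from the site centre (x axis, kb, both sides averaged) is covered by a peak (y axis), for far (red) and near (blue) LSD1n sites. In the libraries drawn, H3K4me2 and Pol II are highest at the centre, while H3K4me1 (1 h) and H4K20me1 (0 h) are highest between 900 and 1600 bp from it, and H4K20me1 is lower around far sites at every distance drawn.

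Pol II sites, which mark polymerase-rich positions of fixed size, overlapped about as many far as near sites. In WT 547 far sites (48.8%, 45.8% to 51.7%) overlapped Pol II at 0 h and 564 (50.3%) at 1 h, against 53.2% and 53.0% of near sites and 52.1% and 52.3% of all. In KO the far counts were 564 (50.3%) and 608 (54.2%), against 53.4% and 53.9% of near sites and 52.6% and 54% of all. The far and near intervals overlapped in the 4 libraries, and at 1 h in KO the far share was the higher one by overlap but not within 1 kb.

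Counting Pol II within 1 kb separated the classes. At 1 h in WT 86.4% (84.2% to 88.3%) of far sites and 96.7% (96.0% to 97.3%) of near sites had Pol II within 1 kb, with 94% over all. In KO the shares were 89.6% and 96.9%, with 95% over all. Far sites with no Pol II within 1 kb in any of the 4 lists numbered 91 (8.11%, 6.58% to 9.86%), against 70 near sites (2.18%, 1.70% to 2.74%) and 3.71% of all.

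The 91 far sites without Pol II within 1 kb overlapped H3K4me2 less often than the rest. H3K4me2 at 0 h overlapped 31 of them (34.1%, 24.5% to 44.7%), against 87.3% of the 1031 far sites with Pol II within 1 kb. H3K4me1 in WT at 1 h overlapped 28 (30.8%, 21.5% to 41.3%), against 26.7% (24.0% to 29.5%) of those with Pol II, and these intervals overlapped. H4K20me1 at 0 h was at 16.5% against 13.3% in KO and at 5.49% against 10.4% in WT, with overlapping intervals in each. Within 1 kb it was lower without Pol II in both, at 22.0% against 43.3% in KO and 11.0% against 34.9% in WT. H3K4me1 in WT at 1 h was likewise lower within 1 kb, at 44.0% against 74.9%. H3K36me3 in WT at 1 h was at 5 of 91 sites (5.49%) against 0.388%. Lower H3K4me2 without Pol II was not particular to far sites, since near sites had 41.4% without Pol II and 87.6% with it. Higher H3K36me3 overlap was not either, at 31.4% of near sites without Pol II and 3.40% of those with it. The median distance from LSD1c was 72.7 kb for the 91 sites, against 60.8 kb for the far sites with Pol II, and their median place in the list was 3377, against 2700. At 1 h in WT, H3K4me2, H3K4me1 and Pol II were all within 1 kb of 646 far sites (57.6%, 54.6% to 60.5%), against 61.3% of near sites and 60.4% of all.

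Pol II on far sites was mostly found at both times. In WT 460 far sites overlapped Pol II at 0 h and 1 h, 87 only at 0 h and 104 only at 1 h, with background shares of 8.26% and 8.44%. In KO the counts were 509, 55 and 99, with background shares of 5.33% and 6.73%. Far sites reached 7.75% and 9.27% in WT and 4.90% and 8.82% in KO, close to that background. Of the far sites with Pol II at 0 h, 84.1% in WT and 90.2% in KO had it at 1 h, against 84.1% and 89.9% over all. Keeping Pol II was thus not particular to far sites.

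H4K20me1 was rarer on far sites than on near sites in every one of its 5 libraries. At 0 h 112 far sites (9.98%, 8.29% to 11.9%) overlapped H4K20me1 in WT and 152 (13.5%, 11.6% to 15.7%) in KO, against 17.8% (16.5% to 19.1%) and 22.9% (21.5% to 24.4%) of near sites. Over all sites the shares were 15.8% and 20.5%. At 1 h the far counts were 80 (7.13%) in WT replicate 1, 38 (3.39%) in WT replicate 2 and 77 (6.86%) in KO. Near sites had 13.1%, 8.28% and 14.2%, and all sites 11.6%, 7.01% and 12.3%. No far interval overlapped its near interval, although the 2 WT lists at 1 h differed in length from 28453 to 2844 regions.

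The lower level of H4K20me1 reached beyond the sites. Within 1 kb, H4K20me1 was present at 33.0% of far and 56.5% of near sites in WT at 0 h (50.4% over all), and at 41.5% and 64.7% in KO (58.7% over all). In the 10 kb around a site, H4K20me1 regions covered on average 9.82% in WT and 16.1% in KO for far sites, against 18.6% and 27.0% for near sites. No H4K20me1 at all was called in those 10 kb for 53.2% of far sites and 27.1% of near sites in WT at 0 h. Where H4K20me1 was highest differed between libraries. Around far sites its cover at 0 h was highest 1300 bp away in WT (14.4%, against 8.20% at the centre) and 1500 bp away in KO (20.6%, against 11.3%). At 1 h it was highest 1500 bp away in WT replicate 1 (12.3%), but at the centre in WT replicate 2 (2.76%) and KO (5.17%), the 2 shorter lists.

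LSD1c sites without LSD1n give the matching class for the other isoform, 2629 autosomal Flag-LSD1c 1 h sites with no Flag-LSD1n site within 1 kb. Their H4K20me1 overlap at 0 h was 9.74% in WT and 13.4% in KO, close to the 9.98% and 13.5% of LSD1n far sites. Both classes of sites of 1 isoform alone were thus below the near sites in H4K20me1 overlap. Within 1 kb the LSD1c sites had 41.4% and 52.0%, above the LSD1n far sites. Pol II overlapped more of them, 60.3% in WT at 1 h, and H3K4me2 at 1 h overlapped 60.3%. H3K4me1 overlapped 15.6% of them at 0 h and 25% at 1 h in WT, and 10.99% and 28.1% in KO. Each of these H3K4me1 shares was above that of near sites in the same library. Higher H3K4me1 overlap than at near sites was thus not particular to LSD1n far sites.

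H3K36me3 overlapped few far sites. In WT 7 far sites (0.624%, 0.251% to 1.28%) overlapped it at 0 h and 9 (0.802%) at 1 h, and in KO 8 (0.713%) and 2 (0.178%). Near sites had 3.64% and 4.01% in WT and 3.58% and 2.52% in KO. Over all sites the shares were 2.86%, 3.18%, 2.84% and 1.91%. LSD1c sites without LSD1n had 1.10%, 1.18%, 0.685% and 0.418%, so a low share was not particular to LSD1n far sites. The KO lists were short, with 3685 and 3166 regions against 11530 and 17465 in WT. Near sites that overlap peaks of all 8 antibody targets numbered 71, and far sites cannot be of that kind, since LSD1c is one of the targets. Without those 71 the near shares fell to 1.78% and 2.00% in WT and 1.62% and 0.986% in KO, at 0 h and 1 h, still above the far shares.

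By overlap, H3K4me1 changed with the distance to LSD1c within the far class. H3K4me1 in WT at 1 h overlapped 39 of 102 sites (38.2%, 28.8% to 48.4%) at 1 to 10 kb, 195 of 624 (31.2%, 27.6% to 35.0%) at 10 to 100 kb and 69 of 396 (17.4%, 13.8% to 21.5%) over 100 kb. H4K20me1 in KO at 0 h fell the same way, with 22.5% (14.9% to 31.9%), 14.9% (12.2% to 17.9%) and 9.09% (6.45% to 12.4%). For these libraries the first and last intervals did not overlap. H4K20me1 in WT at 0 h was at 12.7% (6.96% to 20.8%), 10.7% and 8.08% (5.59% to 11.2%), where they did. Pol II in WT at 1 h did not follow this order, with 38.2%, 53.7% and 48.0%. H3K4me2 at 1 h was at 61.8%, 68.8% and 61.1%, with overlapping intervals for the first and last class. Within 1 kb the fall was not stepwise: H3K4me1 in WT at 1 h was at 73.5% (63.9% to 81.8%), 77.9% and 63.4% (58.4% to 68.1%). H4K20me1 in KO at 0 h was then at 44.1% (34.3% to 54.3%), 46.2% and 33.6% (28.9% to 38.5%). For both, the first and last intervals within 1 kb overlapped. By overlap, the 17.4% for H3K4me1 in WT at 1 h over 100 kb was below the near share of 19.7% (18.3% to 21.1%), with overlapping intervals. Within 1 kb its 63.4% was below the near share of 71.8% (70.2% to 73.4%), and these intervals did not overlap.

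**Figure D3:**
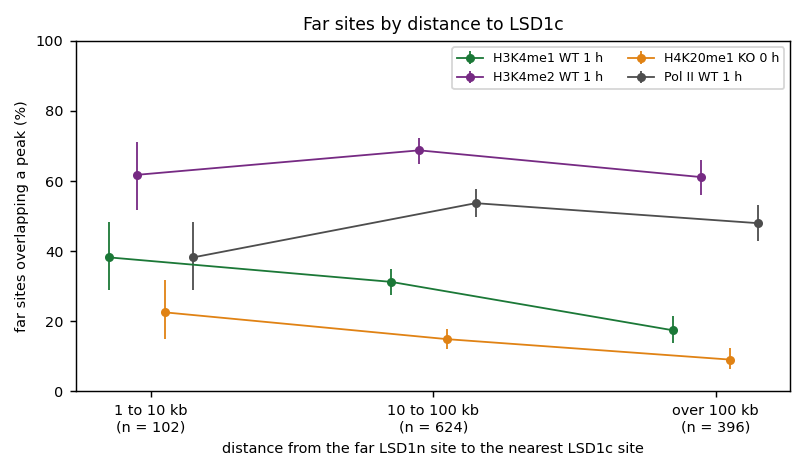
Share of far LSD1n sites (y axis, %) that overlap a peak of 4 lists, by distance to the nearest LSD1c site (x axis; 102, 624 and 396 sites). Points are shares and bars 95% exact intervals over sites; H3K4me1 falls from 38.2% to 17.4% and H4K20me1 in KO from 22.5% to 9.09%, while Pol II is lowest in the class nearest to LSD1c.

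The lists of LSD1n WT and LSD1n KO neurons were then compared at the far sites. For H4K20me1 at 0 h 60 far sites were in both lists, 52 in WT alone and 92 in KO alone, where the background over all sites was 6.99% in WT alone and 11.7% in KO alone. Far sites had 4.63% and 8.20%. WT alone made up 36.1% of the discordant far sites (28.3% to 44.5%) and 37.6% of the discordant near sites (33.9% to 41.4%), so KO alone led in both classes and the intervals overlapped. With both lists cut to 25429 regions the far counts were 52 and 84.

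At 1 h the H4K20me1 comparison depended on the WT library. Against replicate 1, 55 far sites were in WT alone and 52 in KO alone, with background shares of 6.5% and 7.22%. Against replicate 2 the counts were 28 and 67, with 3.53% and 8.79%. With lists cut to equal length both directions turned, to 32 in WT alone and 55 in KO alone against replicate 1, and 31 and 16 against replicate 2. Replicate 2 shares its title prefix with the KO library and replicate 1 does not. Over the 2 replicates WT alone made up 40.4% ± 15.5 (SD, n = 2) of the discordant far sites, and the 2 replicates lay on either side of equality. Both values use the same KO library, so the SD is not a spread of independent genotype comparisons.

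H3K4me1 favoured WT at 0 h and KO at 1 h. At 0 h 111 far sites were in the WT list alone and 71 in the KO list alone, with background shares of 7.1% and 4.89%. WT alone was 61.0% of the discordant far sites (53.5% to 68.1%) and 58.3% of the near ones. At 1 h the counts were 134 and 156, with background shares of 10.1% and 12.4%. The KO list of 1 h was the longest of the series, and with both lists cut to 44793 regions the order turned to 147 in WT alone and 129 in KO alone.

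Pol II was found in the KO list alone more often than in the WT list alone, by the sample labels. At 0 h the far counts were 76 in WT alone and 93 in KO alone, with background shares of 6.69% and 7.17%. WT alone was 45.0% (37.3% to 52.8%) of the discordant far sites. With both 0 h lists cut to 13142 sites the far counts were 83 and 88. At 1 h the uncut far counts were 62 and 106, with background shares of 5.86% and 7.56%. WT alone then made up 36.9% (29.6% to 44.7%) of the discordant far sites against 46.4% (41.5% to 51.3%) of the near ones. With both 1 h lists cut to 14358 sites the far counts were 64 and 96. Under the genotypes named inside the lists the direction would be the opposite. H3K36me3 gave 3 far sites in WT alone and 4 in KO alone at 0 h (background 0.6% and 0.577%), and 8 and 1 at 1 h (background 1.57% and 0.3%).

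**Figure D4:**
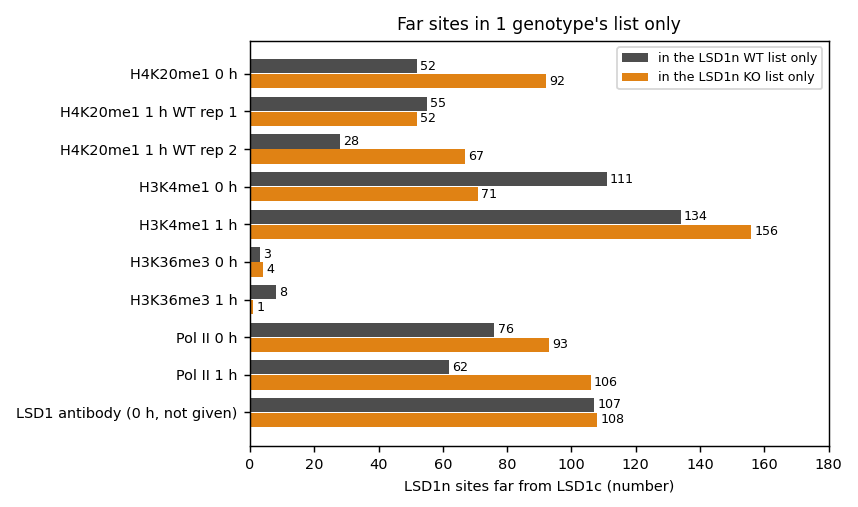
Number of far LSD1n sites (x axis) that overlap a peak in the LSD1n WT list only (grey) or in the LSD1n KO list only (orange), for each mark, Pol II and the LSD1 antibody (y axis). Each bar compares 1 library per genotype; KO alone is the larger for H4K20me1 at 0 h (92 against 52) and Pol II at 1 h (106 against 62), WT alone for H3K4me1 at 0 h (111 against 71), and the LSD1 antibody is even (107 and 108).

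The antibody to LSD1 found the far sites about as often without LSD1n as with it. The LSD1n WT list overlapped 219 far sites (19.5%, 17.2% to 22.0%) and the LSD1n KO list 220 (19.6%, 17.3% to 22.1%), with 21.1% and 19.6% over all sites. Both lists held 112 of them, WT alone 107 and KO alone 108, and the background shares were 10.2% and 8.76%. Near sites had 357 in both, 337 in WT alone and 272 in KO alone. Within 1 kb the order differed: 61.9% of far sites had an LSD1 site in LSD1n WT and 58.6% in LSD1n KO, against 67.0% and 63.8% of near sites and 65.7% and 62.5% of all. The lists were of similar length, 13400 and 13709 sites, from 17993780 tags in WT and 31532169 in KO. The genotypes, their title prefixes and the missing KCl time of the KO library cannot be told apart.

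In wild type neurons the LSD1 antibody overlapped 282 far sites (25.1%, 22.6% to 27.8%) at 0 h and 310 (27.6%, 25% to 30.3%) at 1 h. Near sites had 24.4% and 34.5% (32.9% to 36.2%), and all sites 24.6% and 32.7%. By overlap, far and near sites thus differed beyond counting error at 1 h and not at 0 h, but the difference between the times was not tested. Far sites in the 0 h list alone numbered 191, in the 1 h list alone 219 and in both 91, with background shares of 14.8% and 22.9%. Among LSD1c sites without LSD1n the shares were 17.5% at 0 h and 42.4% at 1 h. Within 1 kb far sites had 72.8% (70.1% to 75.4%) at 0 h and 63.4% (60.5% to 66.2%) at 1 h. The near shares were 78.4% (77.0% to 79.8%) and 80.2% (78.8% to 81.5%), with 77% and 75.8% over all. By this distance the far and near intervals did not overlap at either time.

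Most far sites had an LSD1 site close by in at least 1 of the 4 antibody lists. None of the 4 lists reached within 1 kb of 108 far sites (9.63%), against 100 near sites (3.11%) and 4.8% of all. All 4 lists did so at 367 far sites (32.7%, 30.0% to 35.5%), against 1344 near sites (41.8%, 40.1% to 43.5%) and 39.5% of all. By overlap, 24 far sites (2.14%) were in all 4 lists, against 5.13% of near sites and 4.36% of all. In none were 501 far sites (44.7%), against 41.4% of near sites and 42.2% of all.

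Flag-LSD1n itself was called at few of the far sites before depolarization. Its 0 h list of 940 sites overlapped 39 far sites (3.48%, 2.48% to 4.72%) against 9.09% of near sites and 7.63% of all. That list comes from the library with the lowest share of tags in peaks of the series, and its part in this value was not tested.

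Far sites lay late in the authors' list of Flag-LSD1n sites. The median far site was at place 2768 of the list and the median near site at place 2052.5. The first far site stood at place 94, and 53 of the first 500 entries were far sites. In 5 equal parts of the autosomal list, from first to last, the far sites made up 16.2%, 20.9%, 24.5%, 29.4% and 38.4%. The deposited score is the same in every entry, so the order is taken as it stands in the list. Its entries form 53 runs of chromosomes, inside which the order carries no rank. Counted by run, far sites rose from 12.1% in the earlier runs to 39.4% in the third run from the end.

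Counted within 1 kb, H4K20me1 was lower at far sites in each part of the list. H4K20me1 in KO at 0 h lay within 1 kb of 58.2%, 51.9%, 40.6%, 38.0% and 32.1% of far sites over the 5 parts, and of 76.1%, 68.7%, 64.0%, 60.3% and 49.8% of near sites. Far sites were below near sites in 5 of 5 parts for each of the 5 H4K20me1 libraries by this distance. By overlap this held for 4 of the 5 libraries, and in WT replicate 2 at 1 h far sites were higher in the second part, with 7.73% against 5.69%. Pol II within 1 kb was lower at far sites in 5 of 5 parts in all 4 libraries, but by overlap far sites were higher in 1 or 2 parts. The LSD1 antibody in LSD1n KO overlapped 7.80% of far sites in the first part and 20.4%, 20.3%, 22.0% and 21.9% in the others, against 26%, 16.2%, 17.6%, 15.4% and 22.5% of near sites. Far sites were thus below near sites in the first and last parts, and above them in the 3 between. H3K4me2 in WT at 1 h overlapped more far than near sites in 5 of 5 parts, but lay within 1 kb of more far sites in 1 part only. By overlap H3K4me1 was higher at far sites in 4 of 5 parts in each of its libraries, and within 1 kb in 4 parts at 0 h and 2 parts at 1 h. H3K36me3 in WT at 0 h overlapped 2.13% of far and 12.5% of near sites in the first part, and 0.552% and 0.875% in the second. In KO at 0 h the second part had 1.10% and 0.583%. By overlap H3K36me3 was higher at far sites in 1 and 0 parts in WT at 0 h and 1 h, and in 2 and 1 parts in KO.

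**Figure D5:**
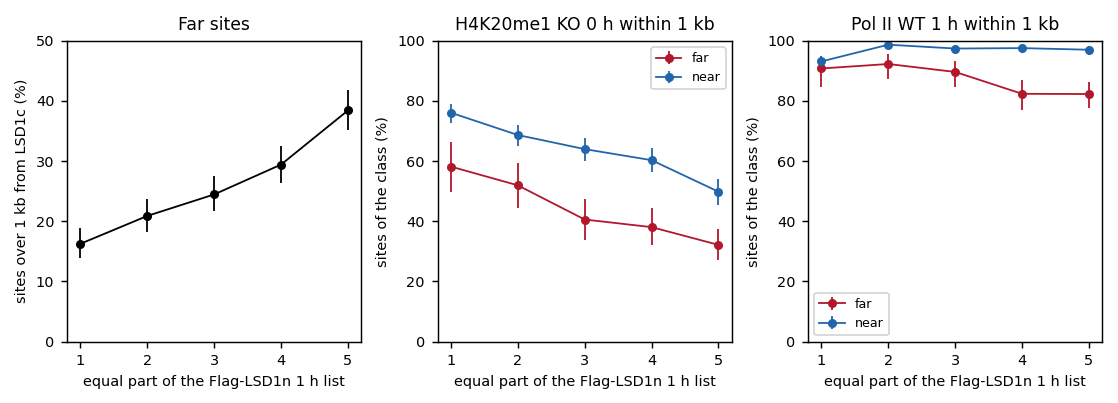
Left, share of autosomal LSD1n sites over 1 kb from LSD1c (y axis, %) in each of 5 equal parts of the Flag-LSD1n list (x axis, first to last). Middle and right, share of far (red) and near (blue) sites with H4K20me1 (KO, 0 h) or Pol II (WT, 1 h) within 1 kb; bars are 95% exact intervals, and far sites rise from 16.2% to 38.4% of the list while their shares stay below those of near sites.

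The far sites at the top of the list carried different sets of marks. The first, at place 94, was chr2:27355505-27355705 (mm9), 1.32 kb from LSD1c. It overlapped H3K4me2 at both times and H3K36me3 in 3 of its 4 lists, with no Pol II site within 1 kb. It overlapped H4K20me1 in all 3 WT lists and neither KO list, although the 1 h KO list had a region within 1 kb. The second, chr5:146041283-146041483 at place 112, overlapped Pol II in all 4 lists and no histone mark. The next, chr4:33859964-33860164 at place 121, lay 525 kb from LSD1c. It was one of the far sites already called by Flag-LSD1n at 0 h, and it overlapped both wild type LSD1 lists and H3K4me1 in WT at 0 h.

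Other early sites had the common combination of H3K4me2 with Pol II. The site chr4:136025675-136025875 (place 123) overlapped Pol II in all 4 lists, H3K4me2 at 0 h and H3K4me1 at 1 h in both genotypes. The site chr12:13255861-13256061 (place 199), 307 kb from LSD1c, overlapped Pol II in all 4 lists, H3K4me2 at 0 h and both wild type LSD1 lists. The site chr13:51888846-51889046 (place 202) overlapped Pol II in all 4 lists and H3K4me2 at 1 h. The site chr19:5490505-5490705 (place 179) overlapped the same Pol II lists, H3K4me2 at 0 h, and H4K20me1 at 1 h in KO and in WT replicate 2.

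A few early sites combined H4K20me1 with H3K4me2 and no overlapping Pol II. The site chr8:4324896-4325096 (place 193) overlapped H4K20me1 in KO and not in WT at 0 h, and both wild type LSD1 lists. At 1 h it overlapped H4K20me1 in WT replicate 1 and not in KO, where a region lay within 1 kb. The site chr10:79613631-79613831 (place 132) likewise overlapped H4K20me1 in KO at 0 h and in WT replicate 1, not KO, at 1 h, together with H3K36me3 in all 4 lists. Both had H4K20me1 in WT at 0 h within 1 kb. The site chr8:87501451-87501651 (place 145) overlapped H4K20me1 in both genotypes at 0 h. H4K20me1 in WT and not in KO at 0 h was found, after the first site of the list, at chr15:76486870-76487070 (place 203) and chr16:4419790-4419990 (place 353). These sites, at places 203 and 353, both had H4K20me1 in KO at 0 h within 1 kb.

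The LSD1 antibody gave named examples on both sides. In LSD1n WT and not LSD1n KO it overlapped chr15:10415880-10416080 (place 258), which both wild type lists also held, chr7:29062858-29063058 (place 303) and chr8:26707598-26707798 (place 315). In LSD1n KO and not LSD1n WT it overlapped chr4:76095769-76095969 (place 224), 2197 kb from the nearest LSD1c site, chr9:69245675-69245875 (place 663), which the wild type list of 0 h also held, and chr12:32634064-32634264 (place 702). At places 258, 224 and 702 the list of the other genotype had a site within 1 kb. The first far site held by all 4 antibody lists was chr2:71291419-71291619 (place 794), with Pol II in all 4 lists and H3K4me2 at both times.

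Some far sites overlapped neither a histone mark nor Pol II in any list. They numbered 33 (2.94%, 2.03% to 4.11%), against 43 near sites (1.34%, 0.970% to 1.80%) and 1.75% of all. An LSD1 antibody site overlapped 12 of the 33, against 22 of the 43 near sites and 34 of the 76 over all. The first of the 33 was chr6:125126609-125126809 (place 418), in both wild type LSD1 lists and with no mark or Pol II within 1 kb. The next, chr13:6647193-6647393 (place 479), had H3K4me2, H3K4me1 and Pol II within 1 kb.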

How the data were processed

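Of the 41 samples, the 27 with ChIP-seq peak lists were used. Bowtie, HOMER and build mm9 are named, with no versions, per the submitters' processing notes. Histone regions were called by the authors, per the file headers, at a size of 500 bp and at least 1250 bp apart, and Pol II, LSD1 and Flag sites at 200 bp, at least 500 bp apart and 4-fold over the local 10 kb. The false discovery rate was 0.001 throughout, fragments were taken as 150 bp, 1 tag was kept per position, and no control library is named. The deposited values are peak positions on mm9. A score is deposited too, but it is 1 throughout and gives no strength.

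Far sites, overlaps, profiles, 10 kb windows and exact intervals at 95% were computed with Python 3.11.15, numpy 2.4.6, scipy 1.17.1 and matplotlib 3.10.9, and were tested on simulated lists. Libraries follow the sample labels. No test between groups was run, and the replicate numbers pair no samples. The members and lists were chosen with earlier results of these data known, and the splits by distance, Pol II and run were chosen after the data were seen. Positions named are the first 10 far sites in list order, then the first 3 of each class described (examples are given here), counted from 1. No mm9 annotation was used, so no gene is named and planned gene lists were not run. Alternatives were other overlap rules, other distances, the first 50% of the list, equal list lengths, and leaving out sites in peaks of all 8 targets.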

Additional observations from a re-analysis of the deposited data

Results flagged for a closer look

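In 3 comparisons the same contrast had opposite directions in the 2 groups of libraries, and the difference was not tested in any of them, since each group holds 1 library. The share of far sites in H3K4me1 lists, KO minus WT, was -3.57 percentage points at 0 h and 1.96 percentage points at 1 h. With the WT and KO lists cut to equal length the opposite directions were gone: the shares were 12.6% in WT and 10.6% in KO at 0 h, and 27.0% in WT and 25.4% in KO at 1 h. The share in H3K36me3 lists, KO minus WT, was 0.0891 percentage points at 0 h and -0.624 percentage points at 1 h, and at equal list length the directions were again opposite, with 0.357% in WT and 0.713% in KO at 0 h and 0.446% and 0.178% at 1 h. The share in H3K36me3 lists, 1 h minus 0 h, was 0.178 percentage points in WT and -0.535 percentage points in KO. The H3K36me3 values rest on 2 to 9 far sites per list. The 0 h and 1 h lists of H3K36me3 were not compared at equal length.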

How the results depend on the processing

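With sites counted as far whenever they had no overlap of 1 bp with LSD1c, 2269 sites were far, and with the LSD1c list of 1 h alone 1690. Over 5 kb or 10 kb from LSD1c the number stayed within 1.5 times the main value. Leaving out sites in peaks of all 8 targets could not change it, since LSD1c is one of the targets. Within 1 kb the far shares in percent were 2.50 and 3.12 for H3K36me3 in WT at 0 h and 1 h and 1.78 in KO at 0 h. H3K4me1 then reached 53.4 and 72.4 in WT and 46.3 and 77.7 in KO at 0 h and 1 h, and H3K4me2 91.5 and 82.5. H4K20me1 reached 33.0 in WT and 41.5 in KO at 0 h, and 26.5, 5.61 and 15.1 at 1 h in WT replicate 1, WT replicate 2 and KO. Pol II reached 81.8 and 86.4 in WT and 85.3 and 89.6 in KO. The LSD1 antibody reached 72.8 and 63.4 in wild type, 61.9 in LSD1n WT and 58.6 in LSD1n KO, and Flag-LSD1n at 0 h 5.61.

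With an overlap of at least 50% of the site, H3K4me1 was at 10.6 and 23.3 in WT and 8.56 and 24.5 in KO, and H3K4me2 at 78.9 and 61.0. H4K20me1 was at 8.20 and 11.3 in WT and KO at 0 h and at 4.90 (WT replicate 1) and 5.17 (KO) at 1 h. Pol II was at 32.4 in WT at both times and at 35.1 and 36.4 in KO. The LSD1 antibody was at 13.9 and 13.3 in wild type, 9.71 in LSD1n WT and 11.1 in LSD1n KO, and Flag-LSD1n at 0 h at 2.32. In the first 50% of the list, H3K4me1 was at 9.80 and 23.3 in WT and 5.64 and 21.8 in KO, and H3K4me2 at 0 h at 86.5. H4K20me1 was at 13.5 and 19.6 at 0 h and at 9.56, 7.11 and 10.8 at 1 h. Pol II at 0 h was at 52.0 in WT and 54.9 in KO, and the LSD1 antibody at 21.6 (wild type, 0 h), 16.9 (LSD1n WT) and 15.7 (LSD1n KO).

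WT alone as a percent of discordant far sites moved within 1 kb to 39.2 for H3K4me1 at 1 h and to 29.5 and 21.9 for Pol II at 0 h and 1 h, and turned to 62.5 for H3K36me3 at 0 h and 56.4 for the LSD1 antibody. In the first 50% of the list it turned to 52.9 for H3K4me1 at 1 h and 54.0 for the LSD1 antibody, and was 45.3 for Pol II at 1 h. With equal list lengths it turned to 53.3 for H3K4me1 at 1 h, 50.2 for the LSD1 antibody and 51.4 for H4K20me1 at 1 h. The 51.4 is a mean over 2 WT replicates that lay on opposite sides of equality. Over 5 kb from LSD1c WT alone turned to 60.0 for H3K36me3 at 0 h. For H4K20me1 at 1 h it ran from 29.5 without replicate 1 to 51.4 without replicate 2. Fewer sites, libraries or regions enter in each of these settings except the 1 kb rule, and the causes of the shifts were not tested.

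The order of far and near shares over 23 lists changed in 5 lists within 1 kb, in 2 with an overlap of 50% of the site, in 6 in the first 50% of the list, and in none over 5 kb from LSD1c or without sites in peaks of all 8 targets. No paired analysis was possible because every group but 1 holds a single library and no test was run. The short lists, H3K36me3 in KO and Flag-LSD1n at 0 h, leave few far sites to count, and list length did not simply follow depth: Flag-LSD1n at 0 h has 940 sites from 31804648 tags.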
